A study of Saccharomyces cerevisiae with 9 samples.

Results

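Respiratory complexes III and IV and the ATP synthase were followed through 50 nuclear genes, out of 5449 yeast genes with a named probe set. Members were all genes with a COX, QCR or ATP symbol followed by a number, together with CYT1, RIP1, COR1, CYC1, CYC7 and INH1, a rule that uses gene symbols only. Of the 50, 34 encode parts of the machinery: 9 subunits of complex III, 2 forms of cytochrome c, 9 subunits of complex IV, 13 subunits of the ATP synthase and the inhibitor INH1. The other 16 encode proteins that build the complexes or express their mitochondrial genes, 10 for complex IV and 6 for the ATP synthase. Each member was read by 1 probe set. A further 6 symbols that fit the rule (COX1, COX2, COX3, ATP6, ATP8 and COX26) had no named probe set and were not analysed here.

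Complex III, the cytochrome bc1 complex, passes electrons from ubiquinol to cytochrome c, and complex IV, cytochrome c oxidase, passes them on to oxygen. Both pump or release protons across the inner mitochondrial membrane, and the ATP synthase uses the return of those protons to make ATP. In yeast the catalytic cores are encoded partly in mitochondrial DNA and most other subunits in the nucleus, where glucose represses them and the Hap2/3/4/5 complex and Hap1 activate many of them. Heme A, copper and dedicated chaperones have to be inserted or supplied before complex IV and the F1 part of the ATP synthase can work.

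The study grew Saccharomyces cerevisiae strains KF7, NBRC2018 and NBRC1958 in YPD, a rich glucose medium, with 0, 20 or 60 g/L of added succinic acid, to ask how yeast responds to this acid. All cultures were kept for 6 hours at 35 °C with shaking at 200 rpm, and total RNA was labelled with biotin and hybridised to 1 array per strain and dose, 9 in all. The labels give no genotype, ploidy or origin for the strains. A dose was thus replicated over 3 strains, and a strain over 3 doses. The labels do not say that the arrays stand for separate cultures, so p-values measure only the spread between these arrays. In the comparisons of doses or strains, that spread includes any dose response that differs between strains. The number of arrays limits the precision.

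Values are linear signals in arbitrary units as the authors normalised them. The median signal over all genes lay between 294 and 311 in the 9 arrays. Differences are on the log2 scale of the signal plus 16, with the standard error (SE) of the additive strain and dose model, and a gene was called when its Benjamini-Hochberg adjusted p from limma, over the 4359 genes tested, was under 0.05. Signals are not compared between genes, since probe sets differ. A signal is relative to the rest of the RNA on the array, so less mRNA of a gene and more of all others cannot be told apart. Of the 50 members 48 passed the filter on low signal. ATP22, which activates ATP6 translation, and ATP10, which helps assemble Atp6 into the membrane part, did not, with mean signals of 94.8 and 25.9.

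Few members reached a ratio of 2 between arrays. The highest signal of a member was a median of 1.61 times its lowest over the 9 arrays, against 1.70 times over all tested genes. A ratio of 2 was reached by 4 of 48 members (8.33%; CYC7, COX15, COX11 and COX19), against 29.3% of all genes. The median was 1.53 times for the 34 subunit, cytochrome c and inhibitor genes, where 1 reached a ratio of 2. It was 1.77 times for the 14 tested assembly and expression factors, where 21.4% did. Genes were not matched for signal level here. CYC7, the gene of the hypoxic form of cytochrome c, had the widest range, 4.48 times, and ATP15, the epsilon subunit of F1, the narrowest, 1.23 times. The arrays at 0 g/L held many of the extremes. Among the 34 subunit, cytochrome c and inhibitor genes, the NBRC2018 array at 0 g/L was the lowest in 16 and the NBRC1958 array at 0 g/L the highest in 15. Extremes were not counted over all genes, so these counts have no background beside them.

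At 60 against 0 g/L the structural genes and the assembly genes differed in how many were called. Of the 34 structural genes 1 rose and none fell (6 had an unadjusted p under 0.05), and their median difference was -0.04. Of the 14 tested assembly and expression factors 6 fell and 2 rose, and their median difference was -0.18. Over all tested genes 8.67% rose and 14.2% fell, with a median of -0.05. The counts of the 2 groups of members were not tested against each other. Within strains, 29 of the 34 structural genes were higher at 60 g/L in NBRC2018, while 25 were lower in KF7 and 21 in NBRC1958. Of the 14 factors 7 were lower in NBRC2018, 11 in KF7 and 10 in NBRC1958. The share of summed squares outside strain and dose was 24.0% for the structural genes and 12.1% for the factors. Fitted without the strain term, 0 members rose and 1 (COX11) fell, so each other call at 60 against 0 g/L given for a member rests on that term.

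**Figure D1:**
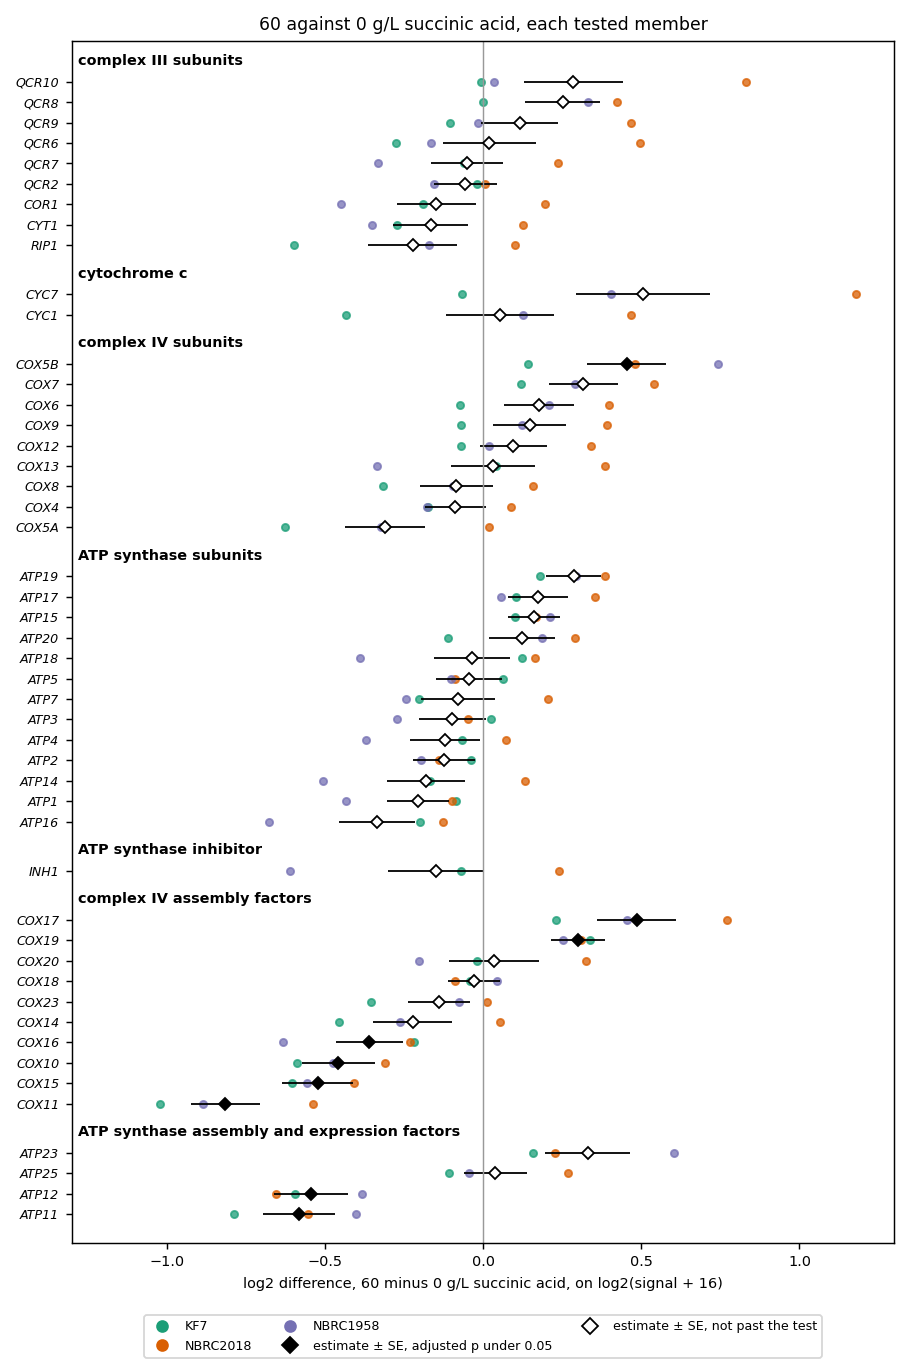
Log2 difference at 60 minus 0 g/L for the 48 tested members, by role. Coloured points are the difference within each strain, diamonds the estimate with its SE, filled where the adjusted p was under 0.05. Filled diamonds stand at 8 assembly or expression factors and at COX5B alone among the structural genes.

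Among the 6 genes that fell at 60 g/L were copper and heme A factors of complex IV and both chaperones of F1. COX11, which delivers copper to the Cox1 subunit, had signals of 254, 193 and 117 in KF7, 259, 261 and 174 in NBRC2018 and 267, 216 and 137 in NBRC1958 at 0, 20 and 60 g/L. All 3 arrays at 60 g/L lay below all 3 at 0 g/L, 143 ± 28.7 at 60 g/L against 260.04 ± 6.56 at 0 g/L (SD, n = 3 each), a difference of -0.81 ± 0.11 (SE, limma adjusted p = 0.0041). This call held without each of the 9 arrays in turn.

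COX15, the heme A synthase, measured 2153, 1867 and 1412 in KF7, 1514, 1651 and 1138 in NBRC2018 and 2840.2, 2159 and 1928 in NBRC1958 at 0, 20 and 60 g/L. It fell in every strain, 1492 ± 401 at 60 g/L against 2169 ± 663 at 0 g/L (SD, n = 3 each), with overlapping groups. The difference was -0.52 ± 0.11 (SE, limma adjusted p = 0.016), and the call was lost without KF7 at 0 g/L, NBRC2018 at 60 g/L or NBRC1958 at 0 g/L (adjusted p = 0.053 to 0.093). COX10, the farnesyl transferase that makes heme O for COX15, gave 233, 219.7 and 149.6 in KF7, 257, 235 and 205 in NBRC2018 and 285, 203 and 200.3 in NBRC1958 along the same doses. Its groups did not overlap, 185 ± 30.6 at 60 g/L against 258 ± 25.9 at 0 g/L (SD, n = 3 each). Its difference of -0.46 ± 0.11 (SE, limma adjusted p = 0.026) passed the test, and the call was lost without KF7 at 0 g/L, KF7 at 60 g/L, NBRC2018 at 60 g/L or NBRC1958 at 0 g/L (adjusted p = 0.052 to 0.13).

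The chaperones of the F1 headpiece also fell. ATP11, which binds the beta subunit, had signals of 710.3, 604 and 405 in KF7, 675, 591 and 454 in NBRC2018 and 628, 479.98 and 472 in NBRC1958 at 0, 20 and 60 g/L. ATP12, which binds the alpha subunit, had 676, 582 and 443 in KF7, 689, 645 and 432 in NBRC2018 and 545, 409 and 414 in NBRC1958. For both, each array at 60 g/L lay below each array at 0 g/L. ATP11 averaged 444 ± 34.8 at 60 g/L against 671 ± 41.1 at 0 g/L (SD, n = 3 each), a difference of -0.58 ± 0.11 (SE, limma adjusted p = 0.012), and the call was lost without KF7 at 0 g/L or NBRC1958 at 0 g/L (adjusted p = 0.051 to 0.06). ATP12 averaged 429.9 ± 14.4 at 60 g/L against 637 ± 79.6 at 0 g/L (SD, n = 3 each), a difference of -0.54 ± 0.12 (SE, limma adjusted p = 0.016), and the call was lost without KF7 at 0 g/L, NBRC2018 at 60 g/L or NBRC1958 at 0 g/L (adjusted p = 0.056 to 0.077). COX16, a complex IV assembly factor, gave 381, 371 and 326 in KF7, 368, 389 and 312 in NBRC2018 and 333, 288 and 209 in NBRC1958. Its groups did not overlap. The difference was -0.36 ± 0.11 (SE, limma adjusted p = 0.045), and the call was lost without any 1 array other than KF7 at 60 g/L (adjusted p = 0.06 to 0.2). It was also lost under quantile normalization (adjusted p = 0.053) and median centring (adjusted p = 0.052).

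A pair of small copper-linked proteins of the intermembrane space rose. COX17, the copper chaperone of complex IV, had signals of 944, 987 and 1111 in KF7, 913, 1010.1 and 1568 in NBRC2018 and 1216, 1087 and 1671 in NBRC1958 at 0, 20 and 60 g/L. It was higher at 60 than at 0 g/L in all 3 strains, 1450.1 ± 298 at 60 g/L against 1024 ± 167 at 0 g/L (SD, n = 3 each), with overlapping groups. The difference was 0.49 ± 0.12 (SE, limma adjusted p = 0.028), and the call was lost without any 1 array other than KF7 at 20 g/L, KF7 at 60 g/L or NBRC1958 at 20 g/L (adjusted p = 0.051 to 0.097). COX19, a related protein with paired cysteine motifs, measured 488, 495 and 621 in KF7, 441, 488 and 551 in NBRC2018 and 795, 776 and 949.5 in NBRC1958. Its difference was 0.30 ± 0.08 (SE, limma adjusted p = 0.039) with overlapping groups, and the call was lost without any 1 of the 9 arrays (adjusted p = 0.056 to 0.11). With an intensity trend in limma it was lost as well (adjusted p = 0.052).

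The factors that were not called at 60 against 0 g/L ranged from -0.22 for COX14, which limits Cox1 synthesis, to 0.33 for ATP23, a protease that matures Atp6. COX18 and COX20, which handle Cox2, stood at -0.03 and 0.03. Fitted without the filter on low signal, ATP10 differed by -0.38 ± 0.11 (adjusted p = 0.043) and ATP22 by 0.08 ± 0.11 (adjusted p = 0.63).

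**Figure D2:**
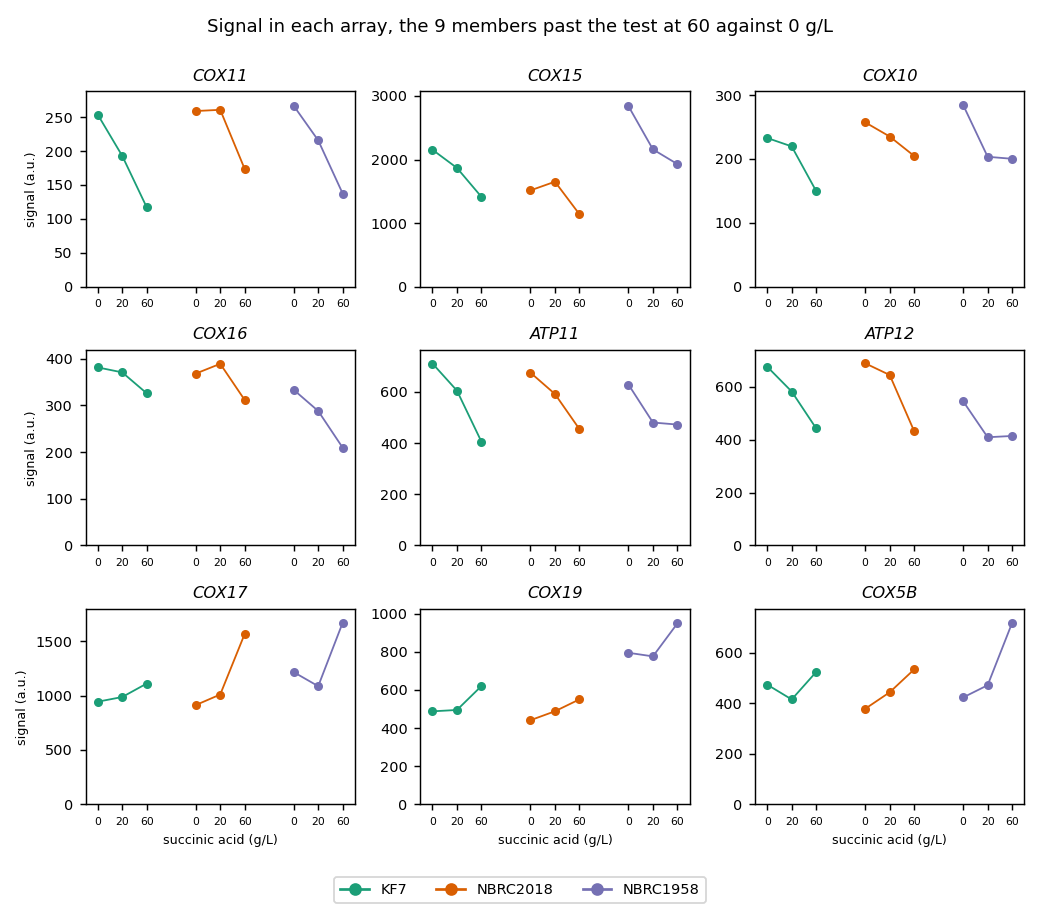
Signal (arbitrary units, axis from 0) of the 9 members called at 60 against 0 g/L, at 0, 20 and 60 g/L in KF7, NBRC2018 and NBRC1958, 1 array per point and doses evenly spaced. COX11, COX15, COX10, COX16, ATP11 and ATP12 are lower at 60 than at 0 g/L in each strain, and COX17, COX19 and COX5B are higher.

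COX5B, the hypoxic form of subunit 5 of complex IV, was the only structural gene called at 60 against 0 g/L. Its signals were 473, 415 and 524 in KF7, 378, 443 and 534 in NBRC2018 and 423, 471 and 718 in NBRC1958 at 0, 20 and 60 g/L. The arrays at 60 g/L all lay above those at 0 g/L, 592 ± 109 at 60 g/L against 425 ± 47.8 at 0 g/L (SD, n = 3 each), a difference of 0.45 ± 0.13 (SE, limma adjusted p = 0.036). Here the call was lost without any 1 array other than KF7 at 0 g/L or KF7 at 60 g/L (adjusted p = 0.053 to 0.17). COX5A, the aerobic form, gave 3184, 2309 and 2059 in KF7, 2032, 1906 and 2059.5 in NBRC2018 and 2488, 1843 and 1986 in NBRC1958. It was lower at 60 g/L in KF7 and NBRC1958 and nearly level in NBRC2018, 2035 ± 42.5 at 60 g/L against 2568 ± 581 at 0 g/L (SD, n = 3 each). Its difference of -0.31 ± 0.13 (SE, limma adjusted p = 0.11) did not pass the test. Without the NBRC2018 array at 0 g/L it did, with an adjusted p of 0.046.

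Neither form of cytochrome c was called at 60 against 0 g/L. CYC7 had signals of 3171, 2669 and 3025 in KF7, 880.05, 1456 and 2012 in NBRC2018 and 2975, 2791 and 3946 in NBRC1958 at 0, 20 and 60 g/L. The log2 difference of 60 minus 0 g/L was -0.07 in KF7, 1.18 in NBRC2018 and 0.41 in NBRC1958. Over the strains the difference was 0.51 ± 0.21 (SE, limma adjusted p = 0.11). CYC1, the aerobic form, measured 2833, 2256 and 2096 in KF7, 2065, 1988 and 2862 in NBRC2018 and 2498, 1763 and 2727 in NBRC1958. Its difference of 0.05 ± 0.17 (SE, limma adjusted p = 0.84) was made up of -0.43 in KF7, 0.47 in NBRC2018 and 0.13 in NBRC1958, none of them tested alone.

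**Figure D3:**
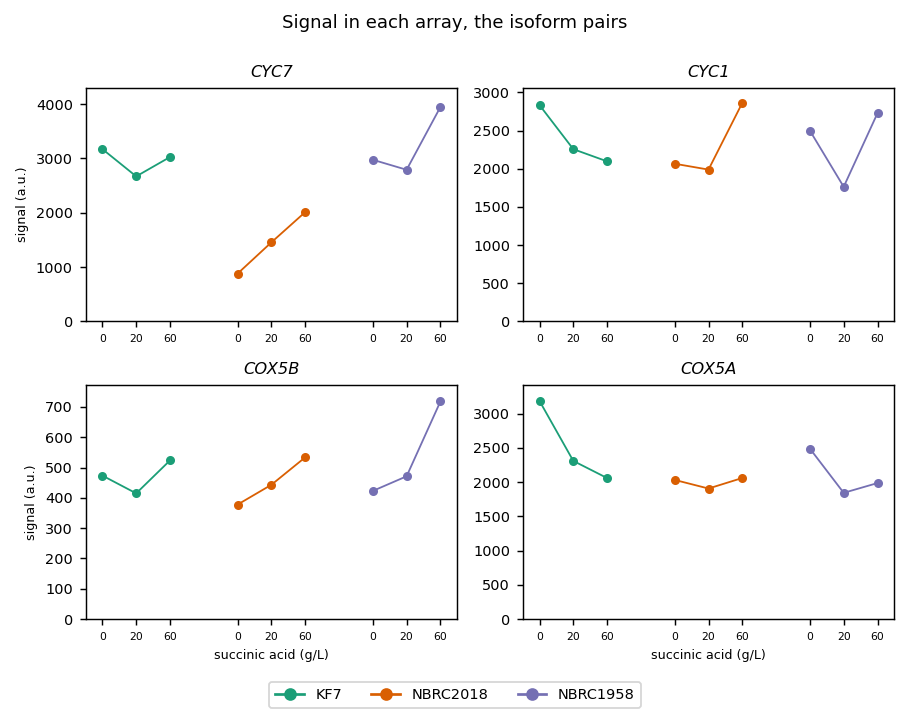
Signal (arbitrary units, axis from 0) of the hypoxic forms CYC7 and COX5B on the left and the aerobic forms CYC1 and COX5A on the right, at 0, 20 and 60 g/L in each strain, 1 array per point. CYC7 is lowest in NBRC2018 at every dose, from 880.05 at 0 g/L to 2012 at 60 g/L.

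The other structural genes did not pass the test at 60 against 0 g/L. None of the 9 complex III subunits was called, from RIP1, the Rieske iron-sulfur protein, at -0.22 to QCR10 at 0.29. Among complex IV subunits 6 of 9 had positive differences, with COX7 at 0.31 and COX6 at 0.18, neither called. The 13 ATP synthase subunits ran from ATP16, the delta subunit of F1, at -0.33 to ATP19, subunit k of the membrane part, at 0.29. The catalytic beta subunit ATP2 differed by -0.12 and the alpha subunit ATP1 by -0.21. INH1, which blocks ATP hydrolysis by the enzyme when the proton gradient is lost, differed by -0.15.

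At 20 against 0 g/L none of the 48 tested members was called by limma (3 had an unadjusted p under 0.05), where 0.0229% of all genes rose and 0% fell. The estimates were below 0 for 42 of the 48, with a median of -0.10, against 0.01 over all genes. Within strains the direction was not shared. It was below 0 for 43 of 48 members in KF7 and 45 of 48 in NBRC1958, and above 0 for 36 of 48 in NBRC2018. These estimates all rest on the same 0 g/L arrays.

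At 60 against 20 g/L all 9 complex IV subunits had estimates above 0, with a median of 0.23 against -0.06 over all genes, and 1 of them was called. COX7, a small subunit of complex IV, had signals of 2218, 1872 and 2412 in KF7, 1516, 1603 and 2212 in NBRC2018 and 1961, 1595 and 2402 in NBRC1958 at 0, 20 and 60 g/L. The 60 g/L arrays all lay above the 20 g/L arrays, 2342 ± 113 at 60 g/L against 1689.7 ± 158 at 20 g/L (SD, n = 3 each), a difference of 0.47 ± 0.11 (SE, limma adjusted p = 0.027). For COX7 the call was lost without KF7 at 20 g/L, NBRC2018 at 20 g/L, NBRC2018 at 60 g/L, NBRC1958 at 20 g/L or NBRC1958 at 60 g/L (adjusted p = 0.073 to 0.14). ATP19 measured 685, 595 and 777 in KF7, 656, 560.1 and 862 in NBRC2018 and 542, 451 and 667 in NBRC1958, lowest at 20 g/L in each strain. Its groups at 60 and 20 g/L did not overlap, 769 ± 97.5 at 60 g/L against 535 ± 75.05 at 20 g/L (SD, n = 3 each). It differed by 0.51 ± 0.09 (SE, limma adjusted p = 0.013), and the call was lost without NBRC2018 at 20 g/L or NBRC1958 at 20 g/L (adjusted p = 0.067 to 0.079).

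Of the 48 members 3 rose and 1 fell at 60 against 20 g/L, where 5.78% of all genes rose and 10.2% fell. The third that rose was COX17, by 0.47 ± 0.12 (SE, limma adjusted p = 0.041), and the call was lost without any 1 array other than KF7 at 60 g/L or NBRC2018 at 0 g/L (adjusted p = 0.055 to 0.18). COX11 fell again, by a difference of -0.60 ± 0.11 (SE, limma adjusted p = 0.016), and the call was lost without KF7 at 20 g/L, NBRC2018 at 20 g/L or NBRC1958 at 20 g/L (adjusted p = 0.051 to 0.074). CYC1 was not called in this comparison, with a difference of 0.35 ± 0.17 (SE, limma adjusted p = 0.18), but passed without KF7 at 60 g/L (adjusted p = 0.027). Over all genes 252 rose and 443 fell in this comparison, and under quantile normalization 308 rose and 341 fell. Without the strain term 0 members rose and 0 fell.

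Complex III subunits and CYC7 were among the genes lower in NBRC2018. Against NBRC1958, 8 members were lower in NBRC2018 and 2 higher, where 11.5% of all genes were lower and 16.3% higher. Complex III contributed 4 of the 8, and all 9 of its subunits had estimates below 0, with a median of -0.41 against 0.06 over all genes. Fitted without the dose term, 0 members were higher and 5 lower in NBRC2018. The lower calls lost were COR1 (limma adjusted p = 0.054), COX15 (0.074) and QCR10 (0.11). In complex III, QCR2 and CYT1 kept theirs. In comparisons between strains, a different mRNA level and a sequence difference under a probe set cannot be told apart.

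QCR2, a core subunit of complex III, had signals of 1589, 1402 and 1567 in KF7, 1284, 1364 and 1288 in NBRC2018 and 2139, 1743 and 1919.8 in NBRC1958 at 0, 20 and 60 g/L. Each NBRC2018 array lay below each NBRC1958 array, 1312 ± 45.4 in NBRC2018 against 1934 ± 198 in NBRC1958 (SD, n = 3 each), a difference of -0.55 ± 0.10 (SE, limma adjusted p = 0.0086) that held without each array in turn. COR1, the other core subunit, measured 3554, 3404 and 3114 in KF7, 2584, 3037 and 2959.7 in NBRC2018 and 4693, 4000.1 and 3429 in NBRC1958. It was also lower in NBRC2018 with no overlap, 2860.4 ± 242 in NBRC2018 against 4041 ± 633 in NBRC1958 (SD, n = 3 each), by a difference of -0.49 ± 0.13 (SE, limma adjusted p = 0.025), and the call was lost without NBRC2018 at 0 g/L, NBRC2018 at 20 g/L, NBRC1958 at 0 g/L or NBRC1958 at 20 g/L (adjusted p = 0.062 to 0.11).

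CYT1, cytochrome c1, had signals of 3537, 2932 and 2928 in KF7, 2169, 2504 and 2370.4 in NBRC2018 and 3979, 3321 and 3116 in NBRC1958 along the doses. NBRC2018 was again below NBRC1958 with no overlap, by a difference of -0.56 ± 0.12 (SE, limma adjusted p = 0.015), and the call was lost without NBRC2018 at 0 g/L, NBRC1958 at 0 g/L or NBRC1958 at 20 g/L (adjusted p = 0.052 to 0.074). QCR10, a small subunit, gave 1835, 1594 and 1827 in KF7, 1039.8, 1233 and 1860.3 in NBRC2018 and 1978, 1796 and 2025 in NBRC1958. It was low in NBRC2018 at 0 and 20 g/L and near the other strains at 60 g/L, so the strains overlapped. Its difference was -0.53 ± 0.16 (SE, limma adjusted p = 0.041), and the call was lost without KF7 at 20 g/L, NBRC2018 at 0 g/L, NBRC2018 at 20 g/L, NBRC1958 at 0 g/L or NBRC1958 at 20 g/L (adjusted p = 0.063 to 0.17).

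The strain gap in complex III was smaller at the higher doses. The median difference of its 9 subunits, NBRC2018 minus NBRC1958, was -0.73 at 0 g/L, -0.33 at 20 g/L and -0.15 at 60 g/L. It was not alone in this. The medians were -0.41, -0.09 and 0.02 for ATP synthase subunits and -0.27, -0.01 and -0.01 for complex IV subunits. All 9 complex III subunits had their lowest signal in the NBRC2018 array at 0 g/L, and without that array 4 members in place of 8 were lower in NBRC2018. The count was also 4 without NBRC1958 at 0 g/L or NBRC1958 at 20 g/L, 5 without NBRC2018 at 20 g/L and 14 without NBRC1958 at 60 g/L. From 0 g/L, all 9 complex III subunits were higher at 60 g/L in NBRC2018, and 7 of 9 were lower in NBRC1958. QCR2 in NBRC2018 was higher by almost nothing (1288.2 at 60 g/L against 1283.7 at 0 g/L). In KF7 all 9 were lower, QCR8 by almost nothing (3069.2 at 60 g/L against 3069.4 at 0 g/L). All 9 complex IV subunits were also higher at 60 g/L in NBRC2018, with a median of 0.39 against 0.24 for complex III. The smallest of these rises was that of COX5A, 0.02. Of these complex IV subunits 5 were higher at 60 g/L in NBRC1958 and 3 in KF7. A test of whether dose slopes differ between strains called 0% of all genes and none of the 48 members. At an unadjusted p under 0.05 it gave 4 members and 421 of 4359 genes.

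**Figure D4:**
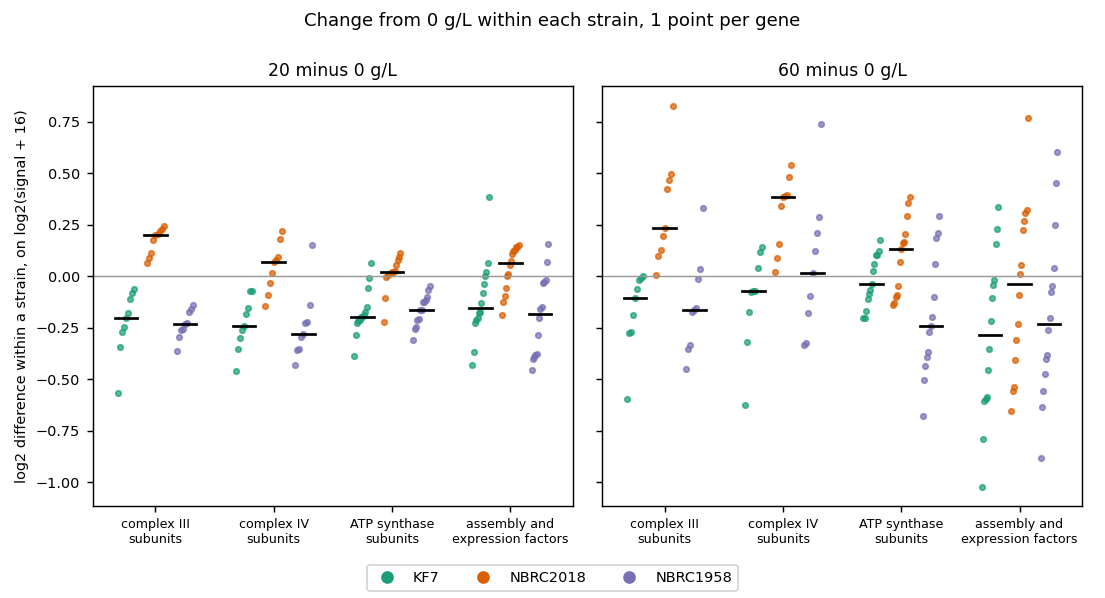
Log2 difference from 0 g/L within each strain at 20 g/L (left) and 60 g/L (right), 1 point per tested gene and a black line at the group's median. Complex III subunits lie above 0 in NBRC2018 at both doses and at or below 0 in KF7. Complex IV subunits lie above 0 in NBRC2018 at 60 g/L. The difference in slope passed no test.

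The smallest slope p-values belonged to INH1, QCR10 and CYC7. INH1 had signals of 1939, 1792 and 1846 in KF7, 1666, 1929 and 1968 in NBRC2018 and 2364, 2077 and 1542 in NBRC1958 at 0, 20 and 60 g/L. Its fitted change over 60 g/L was -0.05 in KF7, 0.21 in NBRC2018 and -0.61 in NBRC1958 (limma F test, adjusted p = 0.46). For QCR10 the slopes were 0.04, 0.84 and 0.07 in the same order of strains (adjusted p = 0.50). CYC7 slopes were -0.02, 1.11 and 0.45 (adjusted p = 0.51).

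CYC7 was the member with the largest strain difference. NBRC2018 lay below NBRC1958 at every dose, 1449 ± 566 in NBRC2018 against 3237 ± 621 in NBRC1958 (SD, n = 3 each), a difference of -1.21 ± 0.21 (SE, limma adjusted p = 0.0076) that held without each array in turn. KF7 lay above NBRC2018, 2955 ± 258 in KF7 against 1449 ± 566 in NBRC2018 (SD, n = 3 each), a difference of 1.09 ± 0.21 (SE, limma adjusted p = 0.015), and the call was lost without KF7 at 0 g/L (adjusted p = 0.055). CYC1 did not follow, with differences of -0.01 ± 0.17 (SE, limma adjusted p = 0.97) and 0.06 ± 0.17 (SE, limma adjusted p = 0.83) in the same comparisons.

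Complex IV assembly factors also differed by strain. COX19 was lower in NBRC2018 than in NBRC1958, 493 ± 54.8 in NBRC2018 against 840.3 ± 95.1 in NBRC1958 (SD, n = 3 each), by a difference of -0.75 ± 0.08 (SE, limma adjusted p = 0.0022). It was lower in KF7 too, 535 ± 74.7 in KF7 against 840.3 ± 95.1 in NBRC1958 (SD, n = 3 each), by -0.64 ± 0.08 (SE, limma adjusted p = 0.0032). Both calls held without each array in turn, and every NBRC1958 array lay above all arrays of the other strains. COX15 was lower in NBRC2018 than in NBRC1958 without overlap, by a difference of -0.68 ± 0.11 (SE, limma adjusted p = 0.0066), and this call too held without each array in turn but not without the dose term (adjusted p = 0.074).

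COX18, which inserts the Cox2 tail into the membrane, had signals of 406, 407 and 394 in KF7, 371, 356 and 348 in NBRC2018 and 457, 451 and 471 in NBRC1958 at 0, 20 and 60 g/L. NBRC2018 was lower than NBRC1958 with no overlap, by a difference of -0.35 ± 0.08 (SE, limma adjusted p = 0.021), and the call was lost without NBRC2018 at 0 g/L, NBRC2018 at 20 g/L, NBRC2018 at 60 g/L, NBRC1958 at 0 g/L or NBRC1958 at 20 g/L (adjusted p = 0.064 to 0.082). COX16 was higher in NBRC2018, by 0.36 ± 0.11 (SE, limma adjusted p = 0.038), and the call was lost without any 1 array other than KF7 at 60 g/L or NBRC1958 at 0 g/L (adjusted p = 0.054 to 0.14). ATP19 was higher in NBRC2018 by 0.31 ± 0.09 (SE, limma adjusted p = 0.034), and the call was lost without any 1 array other than KF7 at 20 g/L, KF7 at 60 g/L or NBRC1958 at 60 g/L (adjusted p = 0.054 to 0.14). It was also lost under median centring (adjusted p = 0.054).

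**Figure D5:**
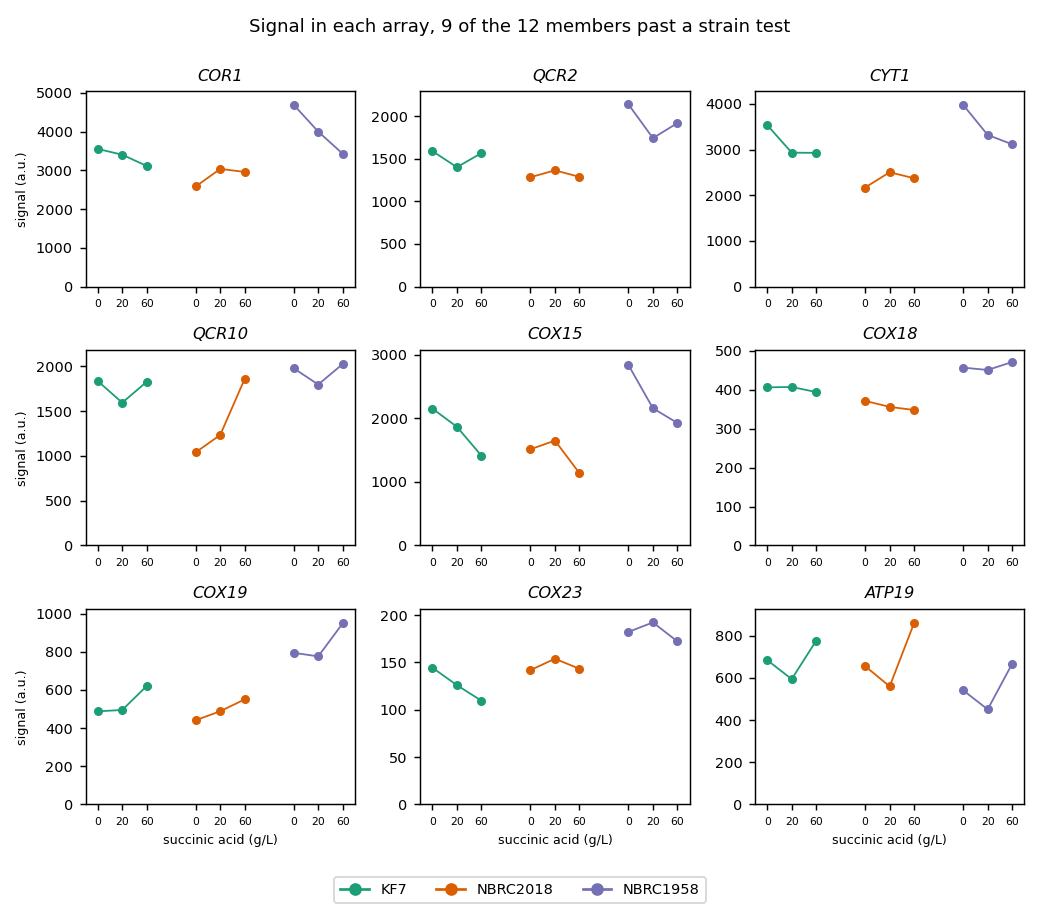
Signal (arbitrary units, axis from 0) of 9 of the 12 members called in a strain comparison, at 0, 20 and 60 g/L in each strain, 1 array per point. COR1, QCR2, CYT1, QCR10, COX15, COX18, COX19 and COX23 are lower in NBRC2018 than in NBRC1958 at every dose, and ATP19 is higher. Of these, COX23 was not called between NBRC2018 and NBRC1958, only between KF7 and NBRC1958. CYC7, called lower in NBRC2018, is not among the 9 shown here.

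Between KF7 and NBRC1958 fewer members were called: 2 were higher and 3 lower in KF7, where 9.45% of all genes were higher and 9.66% lower. Besides COX19, COX23 and QCR2 were lower. COX23, another paired-cysteine protein of the intermembrane space, measured 144, 126 and 109 in KF7, 142, 154 and 143 in NBRC2018 and 182, 192 and 172 in NBRC1958 along the doses. It differed with no overlap by -0.48 ± 0.10 (SE, limma adjusted p = 0.015), and the call was lost without KF7 at 20 g/L, NBRC1958 at 0 g/L or NBRC1958 at 20 g/L (adjusted p = 0.053 to 0.08). QCR2 differed by -0.34 ± 0.10 (SE, limma adjusted p = 0.047), and the call was lost without any 1 of the 9 arrays (adjusted p = 0.053 to 0.19). With an offset of 1 in place of 16 its adjusted p was 0.05 and it was no longer called.

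The members higher in KF7 than in NBRC1958 were COX16 and ATP19. COX16 differed by 0.38 ± 0.11 (SE, limma adjusted p = 0.043), and the call was lost without any 1 array other than NBRC1958 at 0 g/L (adjusted p = 0.052 to 0.15). ATP19 differed by 0.31 ± 0.09 (SE, limma adjusted p = 0.044), and the call was lost without any 1 array other than KF7 at 60 g/L (adjusted p = 0.052 to 0.17). It was also lost under quantile normalization (adjusted p = 0.053) and with an intensity trend (adjusted p = 0.056). Without the dose term neither gene was called.

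Against NBRC2018, CYC7 was the only member higher in KF7 and ATP25 the only one lower, where 7.13% of all genes were higher and 9.29% lower. These are 311 genes higher and 405 lower in KF7, and under median centring 341 were higher and 314 lower. Without the dose term neither member was called. ATP25, which stabilises the mitochondrial mRNA of subunit 9, measured 232, 204 and 214 in KF7, 267, 293 and 326 in NBRC2018 and 258, 232 and 249.6 in NBRC1958 along the doses. Its strains did not overlap, with a difference of -0.42 ± 0.10 (SE, limma adjusted p = 0.031), and the call was lost without any 1 array other than NBRC2018 at 0 g/L, NBRC1958 at 0 g/L or NBRC1958 at 60 g/L (adjusted p = 0.059 to 0.11). All 9 complex III subunits had estimates above 0, with a median of 0.23, and none was called (3 had an unadjusted p under 0.05). At 0 g/L that median was 0.66 and at 60 g/L 0.07. For complex IV subunits 8 of 9 estimates were above 0, with a median of 0.22. Their median was 0.42 at 0 g/L and -0.00048 at 60 g/L.

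Counting all 6 comparisons, 11 members were called in at least 1 dose comparison, 12 in at least 1 strain comparison and 29 of the 48 in none. Of the summed squares of the members 47.4% lay between strains, 33.0% between doses and 19.5% in the rest, against 51.8%, 34.2% and 14.0% over all genes. For the 9 complex III subunits the shares were 58.8% for strain, 16.1% for dose and 25.1% for the rest. For the 4 tested ATP synthase factors they were 26.6% for strain, 55.8% for dose and 17.6% for the rest.

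Genes around the complexes were read at 60 against 0 g/L from lists of known function. Of 7 transcription regulators of respiration 2 rose and 2 fell, where 8.67% of all genes rose and 14.2% fell. The list was not tested as a set. HAP2 and HAP5, DNA-binding parts of the Hap complex, fell by differences of -1.14 ± 0.19 (SE, limma adjusted p = 0.0073) and -0.72 ± 0.12 (SE, limma adjusted p = 0.008). HAP4, its activating subunit, differed by -0.43 ± 0.14 (SE, limma adjusted p = 0.057) and was not called. HAP1, the heme-dependent activator, rose by 0.49 ± 0.14 (SE, limma adjusted p = 0.043). MOT3, a repressor of hypoxic genes named here after its value was seen, rose by 0.44 ± 0.12 (SE, limma adjusted p = 0.032). ROX1, the heme-dependent repressor of hypoxic genes such as COX5B and ANB1, differed by 0.05 ± 0.17 (SE, limma adjusted p = 0.84).

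HAP2 (adjusted p = 0.053) and HAP5 (adjusted p = 0.056) lost their calls without NBRC1958 at 0 g/L. For HAP1 the call was lost without any 1 array other than NBRC2018 at 0 g/L or NBRC2018 at 60 g/L (adjusted p = 0.065 to 0.16). For MOT3 the call was lost without any 1 array other than KF7 at 20 g/L, KF7 at 60 g/L or NBRC2018 at 20 g/L (adjusted p = 0.059 to 0.16), and its adjusted p without the strain term was 0.4. HAP4 was called without the NBRC2018 array at 0 g/L, with an adjusted p of 0.02. It was also called with an intensity trend in limma.

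In ubiquinone synthesis, which makes the electron donor of complex III, 5 of 10 tested genes fell and none rose. For this list and for heme synthesis, the shares over all genes were 14.2% that fell and 8.67% that rose. Neither list was tested as a set. COQ10 differed by -0.70 ± 0.11 (SE, limma adjusted p = 0.0062), COQ2 by -0.61 ± 0.15 (SE, limma adjusted p = 0.026) and COQ3 by -0.61 ± 0.13 (SE, limma adjusted p = 0.014). For COQ2 the call was lost without KF7 at 0 g/L or NBRC1958 at 0 g/L (adjusted p = 0.098 to 0.1), and for COQ3 the call was lost without NBRC1958 at 0 g/L (adjusted p = 0.085). In heme synthesis 2 of 8 fell, HEM14 by -0.60 ± 0.11 (SE, limma adjusted p = 0.01) and HEM13 by -0.57 ± 0.10 (SE, limma adjusted p = 0.0076), and for HEM14 the call was lost without NBRC1958 at 0 g/L (adjusted p = 0.063).

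Among 41 tested assembly and translation factors outside the symbol rule, 13 fell and 3 rose. Over all genes 14.2% fell and 8.67% rose, and these factors were not tested as a set. SCO2, a copper-binding protein of complex IV assembly, differed by -0.97 ± 0.19 (SE, limma adjusted p = 0.012), and the call was lost without NBRC1958 at 0 g/L (adjusted p = 0.068). PET494, an activator of COX3 translation, differed by -0.65 ± 0.11 (SE, limma adjusted p = 0.0076), and the call was lost without NBRC1958 at 0 g/L (adjusted p = 0.053). CBP1, which stabilises the cytochrome b mRNA, rose by 0.79 ± 0.17 (SE, limma adjusted p = 0.014), and the call was lost without KF7 at 0 g/L or NBRC1958 at 0 g/L (adjusted p = 0.059 to 0.087). Without KF7 or NBRC1958 at 60 g/L CBP1 fell below the filter on low signal and had no test.

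TIM11, subunit e of the ATP synthase, rose by 0.35 ± 0.10 (SE, limma adjusted p = 0.042). Its call was lost without any 1 array other than KF7 at 60 g/L (adjusted p = 0.06 to 0.17). TIM11 was 1 of 3 listed ATP synthase proteins outside the rule. The other 2, STF1 and STF2, had differences below 0 and were not called, with STF1 at -0.29. ANB1, the hypoxic form of translation factor eIF5A, fell by a difference of -0.79 ± 0.22 (SE, limma adjusted p = 0.034), opposite in sign to COX5B, and the call was lost without any 1 array other than NBRC2018 at 20 g/L, NBRC2018 at 60 g/L or NBRC1958 at 20 g/L (adjusted p = 0.054 to 0.11). In the list of aerobic and hypoxic isoform pairs 1 of 9 tested genes rose (COX5B), 1 fell (ANB1) and 7 were not called. Over all genes 8.67% rose and 14.2% fell. None of 5 tested NADH and lactate dehydrogenase genes was called by limma (1 with an unadjusted p under 0.05). The same held for 4 genes of mitochondrial DNA upkeep and transcription (1 with an unadjusted p under 0.05). Of the genes of these lists given above as called, HAP5 and PET494 kept their calls without the strain term and the others lost them.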

How the data were processed

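Each array's deposited table holds an intensity on a linear scale for every probe set, normalised by the authors. The scanner, background correction and normalisation method are not given in the sources used here. A 2016 probe annotation named the genes, symbols were matched to the R64 table of gene names (12 were updated), and the probe set with the highest mean stood for a gene. The analysis took log2 of the intensity plus 16 and left out the lowest 20% of genes by mean, under a signal of 118, which left 4359 of 5449.

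Linear models with strain and dose as additive terms were fitted by lmFit and eBayes of limma 3.58.1 (R 4.3.3). They left 4 residual degrees of freedom, and each factor acted as the block for the other. Labels give each strain once per dose, which is where the pairing comes from. A second model with a line on dose per strain (slopes as the log2 change over 60 g/L) tested whether slopes differ, with 3 residual degrees of freedom. Benjamini-Hochberg adjustment covered all 4359 tested genes. The code was tested on simulated data. Members, gene lists and tests were chosen with earlier results of these data known. Values in all 9 arrays are given for structural genes called in a dose comparison, the isoform pairs, the 3 largest calls in each direction per strain comparison and the 3 smallest slope p-values. Those of the factors called at 60 against 0 g/L and of COR1, CYT1 and COX18 were added after their values were seen. Of the other gene lists, HAP1, HAP4 and ROX1 and up to 3 called genes per list were named. Alternatives were quantile normalisation, median centring, other filters and offsets, the mean over probe sets, an intensity trend, no block, dose as a rank, and leaving out each array.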

Additional observations from a re-analysis of the deposited data

How the results depend on the processing

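Of 77 results recomputed per gene, 11 kept their direction and their side of the threshold under every alternative. Of 1367 recomputed values 1052 kept both, 299 lost the call, 4 gained it and 12 changed sign. The 12 belonged to 5 differences that were called neither with all arrays nor where the sign changed, and each came from leaving out 1 array. CYC1 at 60 against 0 g/L became -0.109, -0.0932 and -0.0334 without NBRC2018 at 0 g/L, NBRC2018 at 60 g/L and NBRC1958 at 60 g/L. ROX1 at 60 against 0 g/L became -0.142 and -0.112 without NBRC2018 at 0 and at 60 g/L. CYC7 at 20 against 0 g/L became -0.19 and -0.00112 without NBRC2018 at 0 and at 20 g/L, and COX5B became -0.0101 and -0.0312 without NBRC2018 at 20 g/L and NBRC1958 at 0 g/L. COX5A at 60 against 20 g/L became -0.0877, -0.0299 and -0.000871 without NBRC2018 at 60 g/L, NBRC1958 at 20 g/L and NBRC1958 at 60 g/L. COX11 at 60 against 0 g/L and COX19 in both comparisons with NBRC1958 passed under every alternative that gave them a value (COX11 was below the filter on the lowest 50% of genes). CYC7, QCR2 and MOT3 in NBRC2018 against NBRC1958 did so too. The rest of the 11 were not called in any fit. These were COX5A and CYC1 at 20 against 0 g/L and CYC7 at 60 against 0 g/L. COX5B and CYC7 at 60 against 20 g/L were the others. With no replicate block (no strain term), 0 members rose and 1 fell at 60 against 0 g/L, and 0 rose and 0 fell at 60 against 20 g/L. With no dose term, 0 members were higher in KF7 than in NBRC1958, 0 higher and 0 lower in KF7 than in NBRC2018, and 0 higher and 5 lower in NBRC2018 than in NBRC1958. Under quantile normalisation 5 members rose at 60 against 0 g/L, 5 rose at 60 against 20 g/L and 1 was higher in KF7 than in NBRC1958. With the lowest 50% of genes left out, 0 members fell at 60 against 20 g/L and 0 were lower in KF7 than in NBRC2018. An intensity trend gave 1 member higher in KF7 than in NBRC1958 and 2 higher than in NBRC2018. Median centring gave 2 higher in KF7 than in NBRC2018 and 1 higher in NBRC2018 than in NBRC1958. No filter and an offset of 64 each gave 2 higher in KF7 than in NBRC2018. The causes were not tested. Leaving out 1 array gave 0 to 4 members higher and 1 to 6 lower at 60 against 0 g/L, and 0 to 4 higher and 0 to 1 lower at 60 against 20 g/L. The only 1 member lower at 60 against 0 g/L came without KF7 at 0 g/L or NBRC1958 at 0 g/L. In KF7 against NBRC1958 the ranges were 0 to 1 higher and 1 to 4 lower, in KF7 against NBRC2018 0 to 2 higher and 0 to 1 lower, and in NBRC2018 against NBRC1958 0 to 2 higher and 4 to 14 lower, the 14 without NBRC1958 at 60 g/L. The counts of 0 at 20 against 0 g/L and for slopes did not change.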
